A study of Homo sapiens and Mus musculus with 8 samples.

Results

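The lysosomal genes described here are the vacuolar-type proton pump (V-ATPase) subunits, the cathepsins, other acid hydrolases and proteins of the lysosomal membrane. They are the genes whose symbol starts with Atp6v, or with Cts followed by a letter, or is one of 22 named symbols, ignoring letter case. The rule found 54 genes among 16096 symbols in the 5 deposited tables. Of these, 52 had a row in all 3 mouse tables, and 53, 53 and 54 had a row at 2 weeks, at 5 weeks and in the clone. Each human table held 4 of them. By symbol and role they were 13 V1 and 10 V0 genes of the V-ATPase, 10 cathepsins, 7 glycan hydrolases, 4 genes of lipid breakdown, 2 other proteases, 5 membrane proteins, 2 transcription factors and progranulin. V1 and V0 genes were sorted by symbol alone. They include the pseudogene Atp6v0c-ps2, and Atp6v1fnb, which may not encode a subunit. Glb1, the named gene without a row, was not analysed here.

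The study compared melanoma cells by RNA-seq with 1 sample per group: mouse B16N labelled UV at week 2, B16N labelled UV at week 5, and a B16N clone overexpressing Orai1 (CFP-tagged wild-type Orai1, G418 selection, cell sorting and growth as a single clone) labelled day 0, against untreated B16N labelled day 0. The human lines WM983 and UACC257 were each compared as a UV sample, whose time label is week 2 although its title carries the mark UV3, against the untreated line labelled day 0. Orai1 forms the pore of the store-operated Ca2+ channel, and its transcript was not analysed here, so the label of the clone is not checked. Time in culture and UV cannot be told apart, nor can the transgene and the choice of a single clone. The files hold the authors' own comparisons, so levels and depth are unknown, no difference has a replicate check, and a p-value compares libraries rather than conditions. All 3 B16N comparisons share the untreated sample and thus its error.

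Lysosomes break down protein, glycan and lipid in an acid lumen. The V-ATPase acidifies them: its V1 sector hydrolyses ATP in the cytosol, and its V0 sector carries protons across the membrane. The transcription factors TFEB, TFE3 and MITF bind short E-box sites in promoters of many lysosomal genes, and the melanosome of pigment cells is an organelle related to the lysosome.

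Changes are log2 fold changes of treated over untreated B16N, each with a standard error (SE) worked out from the deposited statistic. A gene is said to have risen or fallen, and is counted as called, when its Benjamini-Hochberg adjusted p over all usable rows of the table was under 0.05. A symbol whose values are identical to those of another symbol in a table cannot be told from it, and such symbols were left out of the counts. This touched 17 of the 54 genes. Of these, 10 shared values with 1 or 2 other symbols in every mouse table, as Atp6v1a did with Alkbh7, Ctsl with Cnfn, Ctss with Stip1 and Naglu with Lrrc34. The other 7, Hexa and Atp6v1c2 among them, shared with larger sets or with sets that changed between tables. Hexa, the alpha subunit of beta-hexosaminidase, had SEs of 2.78, 3.62 and 4.08 at 2 weeks, at 5 weeks and in the clone, per the authors' deposited tables. Cd63, a tetraspanin of late endosomes and melanosomes, had SEs of 1.72, 1.40 and 1.34 in the same order, per the authors' deposited tables, so no direction could be read for either gene.

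After 2 weeks of UV a limited set of lysosomal genes was modestly higher and none was called lower. The rises were those of cathepsins B and D, of V-ATPase genes of both sectors, of the peptidase gene Tpp1 and of the membrane protein gene Laptm4a. In all, 7 of 38 genes with values of their own were called (18.4%), against 7.67% of all 14648 rows and 8.99% of rows with values of their own, where 3.71% were higher and 5.28% lower. The median change of the 38 genes was 0.18, against 0.020 over all rows with values of their own, with 30 genes above 0 and 8 below. SEs of members were smaller than usual, with a median of 0.126 against 0.310 over all rows, and smaller SEs give more calls. Among rows of SE at most 0.5, 8 of 33 genes (24.2%) were called, against 14.2% of all such rows.

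After 5 weeks of UV more lysosomal genes were called, and again none was lower. Cathepsins B, D and H, the membrane protein gene Lamp2, the lipid breakdown genes Lipa and Psap, the alpha-galactosidase gene Gla, Tpp1 and the V-ATPase genes Atp6v1b2, Atp6v1g1 and Atp6v0d1 rose. In all, 11 of 39 genes with values of their own were called (28.2%), against 4.78% of all 14821 rows and 5.51% of rows with values of their own, where 3.53% were higher and 1.98% lower. The median change was 0.35, against 0.0069 over all rows with values of their own, with 31 genes above 0 and 8 below. Among rows of SE at most 0.5, 11 of 33 genes (33.3%) were called, against 7.70% of all such rows.

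In the Orai1 clone lysosomal genes went both ways. Cathepsins B, H, O and Z, the V-ATPase genes Atp6v1h, Atp6v0d1 and Atp6v0e2, Galns and Psap rose, while Lamp1, Lamp2, the acid ceramidase gene Asah1 and the legumain gene Lgmn fell. The counts were 9 higher and 4 lower of 38 genes with values of their own (34.2%), against 22.0% of all 15041 rows and 25.9% of rows with values of their own, where 12.0% were higher and 13.9% lower. The clone differed from untreated cells in many genes, and the members' share was not far above this background. Among rows of SE at most 0.5 it was 45.5%, or 9 higher and 6 lower of 33 genes, against 35.5% of all such rows. The median change was 0.21, against 0.033 over all rows with values of their own, with 24 genes above 0 and 14 below.

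**Figure D1:**
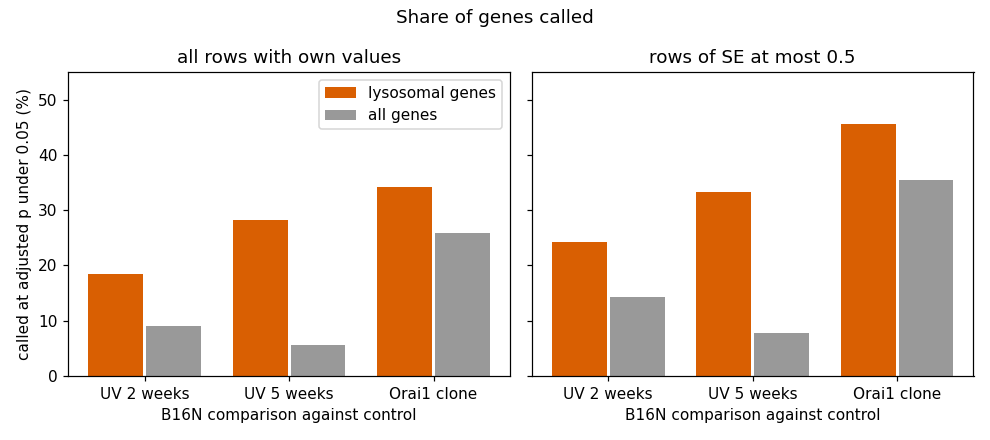
Share of genes called at an adjusted p under 0.05 (y axis, percent) in each B16N comparison (x axis), for lysosomal genes and for all genes, over rows with values of their own and over those of SE at most 0.5. The gap was widest at 5 weeks, with 28.2% against 5.51% and 33.3% against 7.70%.

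Cathepsins are the main lysosomal proteases. Of those with values of their own, 2 of 6 rose at 2 weeks. At 5 weeks 3 of 7 rose, and in the clone 4 of 7. As shares called, 33.3%, 42.9% and 57.1% stand against 8.99%, 5.51% and 25.9% of all rows with values of their own. Ctsb, a cysteine protease, rose, per the authors' deposited tables, by 0.88 (SE 0.11) at 2 weeks, 1.09 (SE 0.14) at 5 weeks and 1.11 (SE 0.11) in the clone. These are 1.84-fold, 2.13-fold and 2.16-fold higher levels. Ctsd, the aspartic protease of the lysosome, rose, per the authors' deposited tables, by 0.52 (SE 0.073) at 2 weeks and 0.95 (SE 0.13) at 5 weeks, and stood at 0.21 (SE 0.085, adjusted p = 0.0651) in the clone. This last value passed, at an adjusted p of 0.0386, once the median of precise rows, those of SE at most 0.3, was set to 0.

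Ctsh, an aminopeptidase, stood, per the authors' deposited tables, at 1.06 (SE 0.89) at 2 weeks and rose by 2.63 (SE 0.78, adjusted p = 0.0206) at 5 weeks and 3.68 (SE 0.59, adjusted p = 1.33e-08) in the clone. Wide SEs leave the size of its rise uncertain. Ctso, a cysteine cathepsin, rose, per the authors' deposited table, by 3.26 (SE 0.70, adjusted p = 4.02e-05) in the clone, and its SEs at 2 and 5 weeks were above 1. Ctsz, a carboxypeptidase, stood, per the authors' deposited tables, at 0.15 (SE 0.082) at 2 weeks and -0.056 (SE 0.15) at 5 weeks, and rose by 0.50 (SE 0.11) in the clone. Ctsc, which activates serine proteases of immune granules, was called in none, with changes between 0.24 and 0.41, per the authors' deposited tables. The value listed for both Ctsl and Cnfn rose, per the authors' deposited table, by 0.43 (SE 0.091) at 2 weeks and was not called later or in the clone, and that of Ctss and Stip1 was called in none.

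Of the V1 sector, all 8 genes with values of their own had changes above 0 at 2 weeks (median 0.26) and at 5 weeks (median 0.34), and in the clone 4 of 7 did (median 0.14). Over all rows with values of their own, 5440 of 10415, 5316 of 10482 and 5579 of 10659 were above 0. The 8 include Atp6v1g2, at 0.73 (SE 1.24) and 0.43 (SE 1.44), per the authors' deposited tables, whose direction could not be read. Over rows of SE at most 1 the V1 medians were 0.17 at 2 weeks and 0.24 at 5 weeks. By the test, 2 of 8 rose at 2 weeks, while 2 of 8 did so at 5 weeks and 1 of 7 in the clone, and none fell. These are 25.0%, 25.0% and 14.3% called, against 8.99%, 5.51% and 25.9% of all rows with values of their own. In the clone the share is below the background. Atp6v1f, of the central rotor, rose, per the authors' deposited tables, by 0.55 (SE 0.078, adjusted p = 3.48e-10) at 2 weeks and stood at 0.15 (SE 0.15) at 5 weeks and -0.20 (SE 0.097) in the clone. Atp6v1g1, of the peripheral stalk, rose, per the authors' deposited tables, by 0.38 (SE 0.10) at 2 weeks and 0.60 (SE 0.17) at 5 weeks, against 0.23 (SE 0.12) in the clone. Atp6v1b2, a B subunit isoform of the catalytic head, stood, per the authors' deposited tables, at 0.34 (SE 0.13, adjusted p = 0.0734) at 2 weeks, rose by 0.63 (SE 0.16) at 5 weeks, and stood at -0.34 (SE 0.14, adjusted p = 0.0593) in the clone. Among rows of SE at most 0.5, Atp6v1b2 passed at 2 weeks (adjusted p = 0.0459) and, as lower, in the clone (adjusted p = 0.0400), by Benjamini-Hochberg adjustment over those rows of the authors' deposited tables.

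Atp6v1h, the H subunit that regulates the pump's activity, rose, per the authors' deposited tables, by 1.90 (SE 0.17, adjusted p = 9.4e-27) in the clone, or 3.73-fold, and stood at 0.17 (SE 0.20) at 2 weeks and 0.57 (SE 0.23, adjusted p = 0.163) at 5 weeks. Atp6v1c1, Atp6v1d and Atp6v1e1 were called in none, with changes between -0.26 and 0.28, per the authors' deposited tables. The value listed for Atp6v1a, the catalytic subunit, and for Alkbh7 was lower in the clone, at -0.65 (SE 0.095), and that listed for Atp6v1b1 and Ndufb2 was higher at 2 weeks, at 0.51 (SE 0.10), per the authors' deposited tables. Which symbol these values belong to is not known.

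In the V0 sector 1 of 6 genes with values of their own rose at 2 weeks. At 5 weeks 1 of 6 rose and in the clone 2 of 6, and none fell. The shares called were 16.7%, 16.7% and 33.3%, against 8.99%, 5.51% and 25.9% of all rows with values of their own. The 6 genes include the pseudogene Atp6v0c-ps2, which was called in none. Atp6v0b, a proteolipid of the proton-carrying ring, rose, per the authors' deposited tables, by 0.79 (SE 0.12, adjusted p = 3.46e-08) at 2 weeks, or 1.73-fold, and stood at 0.39 (SE 0.16) at 5 weeks and 0.13 (SE 0.14) in the clone. Atp6v0d1, the widely expressed d subunit, stood, per the authors' deposited tables, at 0.082 (SE 0.10) at 2 weeks and rose by 0.56 (SE 0.14) at 5 weeks and 0.44 (SE 0.10) in the clone. Atp6v0e2, an e subunit isoform, rose, per the authors' deposited table, by 0.49 (SE 0.13) in the clone. Atp6v0a2 and Atp6v0a4, isoforms of the a subunit that directs the pump to different membranes, were called in none, with changes between -0.14 and 0.38, per the authors' deposited tables. The value listed for the ring gene Atp6v0c and for Tceanc2 rose, per the authors' deposited table, by 0.43 (SE 0.11) at 5 weeks, and its pseudogene Atp6v0c-ps2, which could take reads of it, stood at 0.39 (SE 0.14, adjusted p = 0.0718). The value listed for Atp6v0d2, Pex19 and Zdhhc25 rose, per the authors' deposited table, by 0.65 (SE 0.17) in the clone.

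**Figure D2:**
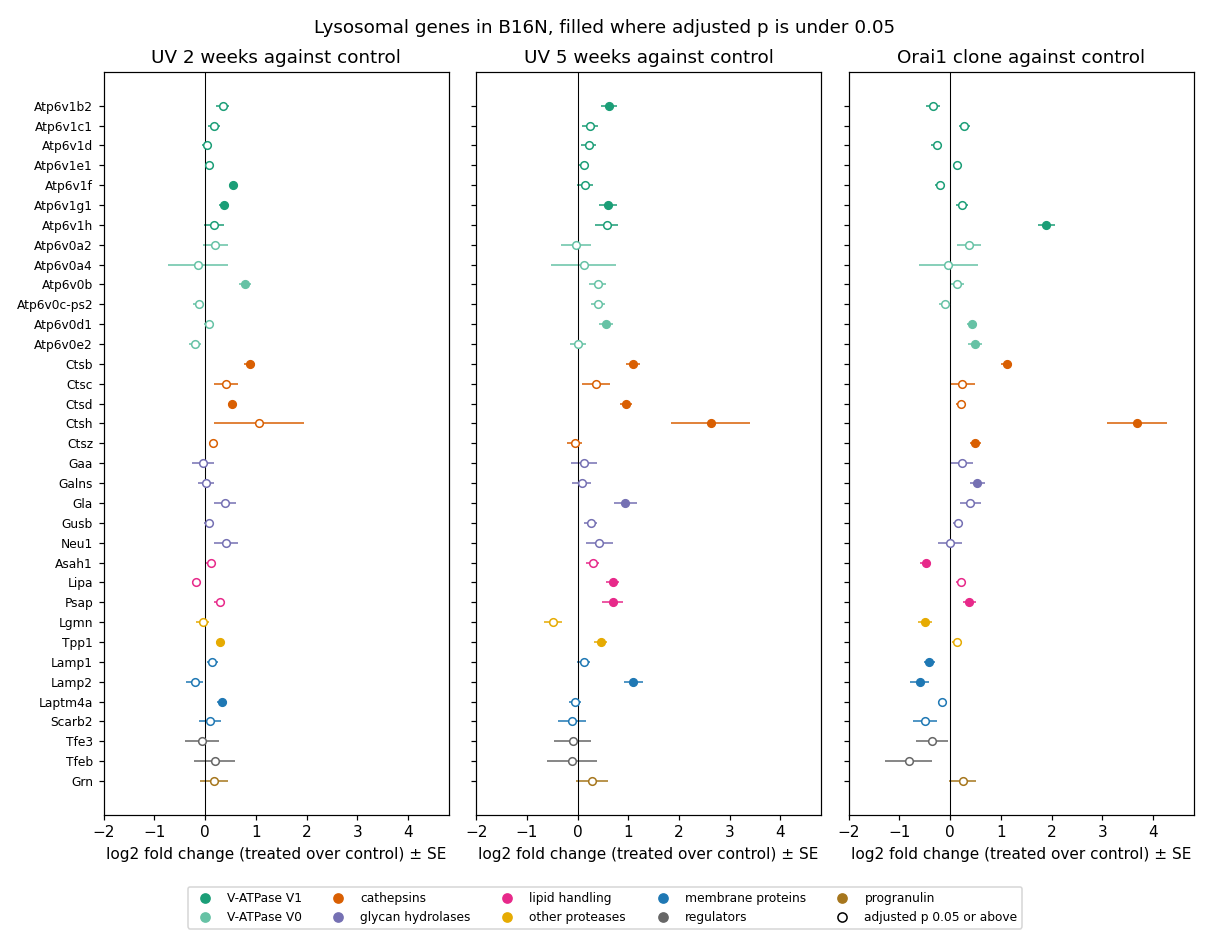
Log2 fold change over untreated B16N with SE (x axis) of the 35 lysosomal genes with values of their own and an SE at most 1 in each of the 3 B16N comparisons (panels). Filled points were called: at 2 and 5 weeks each lies above 0, while the clone has filled points on both sides.

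Glycan hydrolases remove sugars from glycoproteins, glycolipids and glycosaminoglycans, and 0 of 5 with values of their own passed at 2 weeks, while 1 of 5 (20.0%) did so at 5 weeks and 1 of 5 in the clone, against 8.99%, 5.51% and 25.9% of rows with values of their own. Gla, the enzyme deficient in Fabry disease, stood, per the authors' deposited tables, at 0.39 (SE 0.22) at 2 weeks, rose by 0.93 (SE 0.23, adjusted p = 0.00206) at 5 weeks, and stood at 0.40 (SE 0.21) in the clone. Galns, a sulfatase of keratan and chondroitin sulfate, stood, per the authors' deposited tables, at 0.015 (SE 0.16) at 2 weeks and 0.076 (SE 0.19) at 5 weeks and rose by 0.53 (SE 0.15) in the clone. The acid alpha-glucosidase gene Gaa, the beta-glucuronidase gene Gusb and the sialidase gene Neu1 were called in none, with changes between -0.044 and 0.43, per the authors' deposited tables. The value listed for Naglu, which degrades heparan sulfate, and for Lrrc34 rose, per the authors' deposited tables, by 0.56 (SE 0.12) at 2 weeks and 0.50 (SE 0.13) in the clone.

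Of the 3 lipid breakdown genes with values of their own, 0 were called at 2 weeks and 2 rose at 5 weeks (66.7%). In the clone 1 rose and 1 fell (66.7%). Over all rows with values of their own, 8.99%, 5.51% and 25.9% were called. Lipa, the acid lipase that frees cholesterol from its esters, stood, per the authors' deposited tables, at -0.18 (SE 0.081, adjusted p = 0.189) at 2 weeks, rose by 0.69 (SE 0.12, adjusted p = 4e-06) at 5 weeks, and stood at 0.22 (SE 0.096, adjusted p = 0.0849) in the clone. Psap, the precursor of saposins, which present sphingolipids to hydrolases, stood, per the authors' deposited tables, at 0.28 (SE 0.11, adjusted p = 0.0963) at 2 weeks and rose by 0.69 (SE 0.21, adjusted p = 0.0243) at 5 weeks and 0.38 (SE 0.13, adjusted p = 0.0191) in the clone. Asah1 was at 0.11 (SE 0.091) at 2 weeks and 0.30 (SE 0.12) at 5 weeks, and fell in the clone, at -0.48 (SE 0.11, adjusted p = 0.000132), per the authors' deposited tables.

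Tpp1, a tripeptidyl peptidase deficient in a childhood neuronal ceroid lipofuscinosis, rose, per the authors' deposited tables, by 0.29 (SE 0.080) at 2 weeks and 0.45 (SE 0.13) at 5 weeks, and stood at 0.14 (SE 0.10) in the clone. Lgmn, an asparaginyl endopeptidase that also matures cathepsins, was at -0.049 (SE 0.13) at 2 weeks and -0.49 (SE 0.18, adjusted p = 0.0902) at 5 weeks, and fell in the clone, at -0.50 (SE 0.14), per the authors' deposited tables.

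Of the 5 membrane protein genes, 1 rose at 2 weeks, 1 rose at 5 weeks and 2 fell in the clone. That is 20.0%, 20.0% and 40.0% called, against 8.99%, 5.51% and 25.9% of all rows with values of their own. Lamp2, a receptor of chaperone-mediated autophagy in one of its isoforms, was at -0.20 (SE 0.17) at 2 weeks, rose by 1.10 (SE 0.19, adjusted p = 7.17e-07) at 5 weeks, and fell in the clone, at -0.60 (SE 0.19, adjusted p = 0.00876), per the authors' deposited tables. Lamp1, its close relative and a major glycoprotein of this membrane, was at 0.14 (SE 0.10) at 2 weeks and 0.12 (SE 0.13) at 5 weeks, and fell in the clone, at -0.41 (SE 0.11), per the authors' deposited tables. Laptm4a rose, per the authors' deposited tables, by 0.32 (SE 0.097) at 2 weeks, and stood at -0.055 (SE 0.12) at 5 weeks and -0.15 (SE 0.094) in the clone. Scarb2, which carries beta-glucocerebrosidase to the lysosome, was called in none, with changes between -0.49 and 0.091, per the authors' deposited tables.

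The factor genes Tfeb and Tfe3 and the progranulin gene Grn were called in none. Tfeb stood, per the authors' deposited tables, at 0.19 (SE 0.40) at 2 weeks, -0.11 (SE 0.49) at 5 weeks and -0.82 (SE 0.46, adjusted p = 0.231) in the clone. Its SEs leave room for changes of the size seen in the hydrolases. Tfe3 was between -0.36 and -0.065 and Grn between 0.18 and 0.28, per the authors' deposited tables.

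Treated samples were also set against one another by a normal test of the difference between changes, in which the untreated sample cancels. Both SEs still hold the spread of the untreated sample, so the SE of the difference counts it. The test may therefore miss differences. Between 5 and 2 weeks, 2 of 38 genes with values of their own differed (5.26%), both higher at 5 weeks, against 3.33% of all 14083 symbols, with 2.05% higher and 1.28% lower, and 3.59% of those with values of their own. Among rows of SE at most 0.5 it was 4 of 32 (12.5%). Smaller SEs give more calls, so this share cannot be set against those over all symbols. Lamp2 differed by 1.30 (SE 0.25, adjusted p = 3.57e-05) and Lipa by 0.87 (SE 0.15, adjusted p = 1.28e-06), computed from the authors' deposited tables. Ctsd, with a difference of 0.43 (SE 0.15, adjusted p = 0.0731), and Ctsb, with 0.21 (SE 0.18, adjusted p = 0.899), were not called in this test, computed from the authors' deposited tables. Among rows of SE at most 0.5 Ctsd did pass, at a Benjamini-Hochberg adjusted p = 0.0420 from the authors' deposited tables. The remaining gene of the 4 was the pseudogene Atp6v0c-ps2, with a difference of 0.52 (SE 0.17), which could take reads of Atp6v0c.

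Between the clone and 5 weeks, 7 of 38 genes differed (18.4%), 2 higher and 5 lower in the clone, against 5.35% of all 14291 symbols, with 1.27% higher and 4.08% lower, and 5.98% of those with values of their own. Lamp2 was lower in the clone, with a difference of -1.70 (SE 0.26, adjusted p = 1.77e-08), computed from the authors' deposited tables. So were Atp6v1b2 at -0.97 (SE 0.21), Asah1 at -0.78 (SE 0.17) and Ctsd at -0.75 (SE 0.15), computed from the authors' deposited tables. Lamp1 was lower too, at -0.53 (SE 0.17, adjusted p = 0.0452), computed from the authors' deposited tables, a call lost when the median of precise rows was set to 0, with a Benjamini-Hochberg adjusted p = 0.0935. Atp6v1h was higher in the clone at 1.33 (SE 0.28, adjusted p = 0.000186) and Ctsz at 0.55 (SE 0.18, adjusted p = 0.0454), computed from the authors' deposited tables.

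Between the clone and 2 weeks, 10 of 37 genes differed (27.0%), 3 higher and 7 lower in the clone, against 11.7% of all 14105 symbols, with 4.81% higher and 6.86% lower, and 13.0% of those with values of their own. Higher in the clone were Atp6v1h at 1.73 (SE 0.26), Atp6v0e2 at 0.69 (SE 0.18) and Lipa at 0.40 (SE 0.13), computed from the authors' deposited tables. Among V-ATPase genes, Atp6v1f at -0.75 (SE 0.12), Atp6v1b2 at -0.68 (SE 0.19) and Atp6v0b at -0.65 (SE 0.19) were lower, computed from the authors' deposited tables. Asah1 at -0.59 (SE 0.14), Lamp1 at -0.55 (SE 0.15) and Laptm4a at -0.48 (SE 0.14) were lower as well, computed from the authors' deposited tables. Ctsd was lower too, at -0.32 (SE 0.11, adjusted p = 0.0424), computed from the authors' deposited tables, a call that did not hold with the median of precise rows set to 0, at a Benjamini-Hochberg adjusted p = 0.0758.

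**Figure D3:**
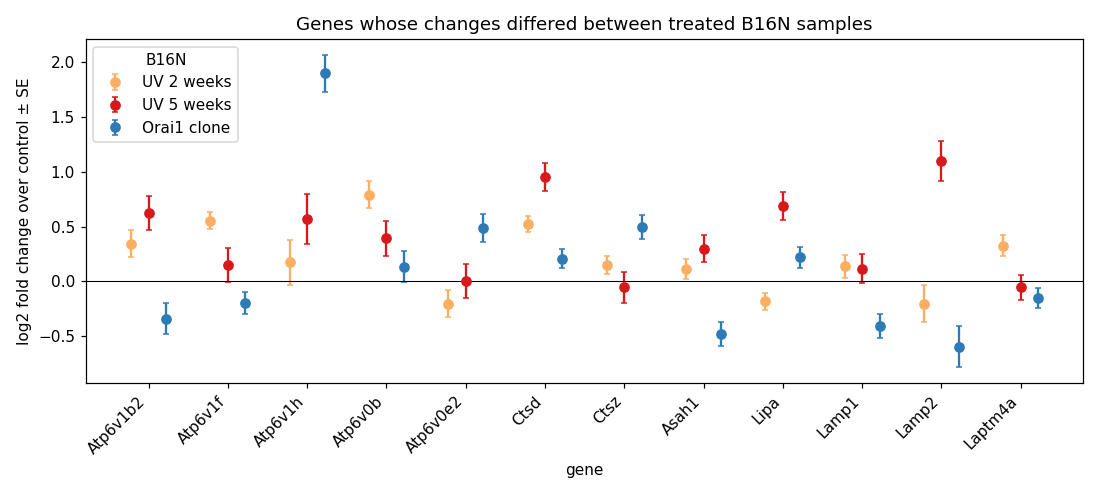
Log2 fold change over untreated B16N with SE (y axis) at 2 weeks, at 5 weeks and in the Orai1 clone for the 12 lysosomal genes (x axis) that differed between at least one pair of treated B16N samples. Lamp2 stands at 1.10 at 5 weeks and -0.60 in the clone, and Atp6v1h at 1.90 in the clone.

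Other lysosomal genes outside the rule were read from lists drawn up beside it. Of 27 further hydrolases with values of their own, 2 were higher and 1 lower at 2 weeks, 3 higher and 1 lower at 5 weeks, and 9 higher and 1 lower in the clone. These are 11.1%, 14.8% and 37.0% called, against 8.99%, 5.51% and 25.9% of all rows with values of their own, so the count at 2 weeks is near the background. Hgsnat, which acetylates heparan sulfate for its breakdown, rose, per the authors' deposited tables, by 0.38 (SE 0.079) at 2 weeks, 1.41 (SE 0.18) at 5 weeks and 0.36 (SE 0.092) in the clone. Man2b1, the lysosomal alpha-mannosidase, rose, per the authors' deposited tables, by 0.77 (SE 0.22) at 2 weeks and 1.16 (SE 0.21) in the clone. The iduronate sulfatase gene Ids fell at both, at -0.48 (SE 0.14) and -0.77 (SE 0.14), per the authors' deposited tables. At 5 weeks the fucosidase gene Fuca2 was at 1.005 (SE 0.24), the carboxypeptidase gene Scpep1 at 0.91 (SE 0.14) and the hyaluronidase gene Hyal2, which fell, at -1.19 (SE 0.32), per the authors' deposited table. The beta-mannosidase gene Manba rose in the clone, at 0.86 (SE 0.29), as did Fuca2, at 0.77 (SE 0.21), per the authors' deposited table.

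Transporters and channels had 2 higher and 1 lower of 20 at 2 weeks, 0 called at 5 weeks, and 1 higher and 1 lower in the clone, or 15.0%, 0% and 10.0%. In the clone this is below the share of 25.9% over all rows with values of their own. At 2 weeks the cholesterol carrier gene Npc2 was at 0.25 (SE 0.072), Laptm4b at 0.37 (SE 0.12) and the channel gene Tpcn1 at -0.38 (SE 0.12), per the authors' deposited table. In the clone Laptm4b was at 1.17 (SE 0.13) and the cholesterol exporter gene Npc1 at -0.35 (SE 0.13), per the authors' deposited table. V-ATPase accessory and assembly genes had 0 of 13 called at 2 weeks, 1 higher at 5 weeks (7.69%), and 2 higher and 3 lower in the clone (38.5%). For both lists the shares over all rows with values of their own were 8.99%, 5.51% and 25.9%. Rnasek, a small protein bound to the pump, rose, per the authors' deposited tables, by 0.96 (SE 0.17) at 5 weeks and 0.80 (SE 0.13) in the clone. The accessory subunit gene Atp6ap2, at -1.05 (SE 0.25), and the assembly genes Vma21, at -0.64 (SE 0.21), and Ccdc115, at -0.38 (SE 0.12), fell in the clone, per the authors' deposited table.

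Genes of enzyme sorting had 0 of 10 called at both UV times, against 8.99% at 2 weeks and 5.51% at 5 weeks over all rows with values of their own. In so short a list 0 is near these shares. In the clone 2 were higher and 1 lower (30.0%, close to the 25.9% over all rows with values of their own). These were Sort1 at 0.78 (SE 0.26), Cln6 at 0.94 (SE 0.37) and Cln8 at -1.01 (SE 0.33), per the authors' deposited table. The MiT factor, Rag and Ragulator list, which ties lysosomal nutrients to mTORC1, had 0 of 13 called at 2 weeks, against 8.99% over all rows with values of their own. At 5 weeks 1 was higher (7.69%, against 5.51% over all rows with values of their own). In the clone 3 were higher and 2 lower (38.5%, against 25.9%). Rragb, a Rag GTPase gene, rose, per the authors' deposited tables, by 1.91 (SE 0.60) at 5 weeks and 2.69 (SE 0.44) in the clone. In the clone Rragd was at 1.38 (SE 0.25), the Ragulator gene Lamtor2 at 1.03 (SE 0.34) and Fnip2, of the folliculin complex, at -0.48 (SE 0.16), per the authors' deposited table. Mitf was called in none, at 0.38 (SE 0.51) at 2 weeks, 0.60 (SE 0.56) at 5 weeks and 0.39 (SE 0.49) in the clone, per the authors' deposited tables. Autophagy genes had 2 of 15 lower at 2 weeks (13.3%), 3 of 15 higher at 5 weeks (20.0%), and 1 higher and 1 lower of 16 in the clone (12.5%), against 8.99%, 5.51% and 25.9% over all rows with values of their own. Plekhm1, a tether between autophagosomes and lysosomes, fell at 2 weeks, at -0.38 (SE 0.11), and rose at 5 weeks, at 0.54 (SE 0.17), per the authors' deposited tables. Uvrag was at -0.37 (SE 0.081) at 2 weeks and Gabarap at 0.42 (SE 0.13) at 5 weeks, per the authors' deposited tables. The autophagy receptor gene Sqstm1 rose, per the authors' deposited tables, by 1.71 (SE 0.17) at 5 weeks and 0.31 (SE 0.085) in the clone, where Atg9a fell, at -0.42 (SE 0.13).

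Macrophages are rich in lysosomal transcripts. Of 14 macrophage markers, 5 had a row at 2 weeks, 7 at 5 weeks and 5 in the clone, and Lyz2 alone had values of its own. Lyz2 stood, per the authors' deposited tables, at 0.38 (SE 0.94) at 2 weeks and rose by 3.47 (SE 0.70) at 5 weeks and 2.78 (SE 0.64) in the clone. No other macrophage marker was called, Csf1r, Adgre1, Itgam and Mrc1 had no row, and the part of such cells in the lysosomal changes was not tested. Of 8 fibroblast markers at most 2 had a row, and none was called. Melanocyte markers, in part genes of the melanosome, had rows for 10 of 10 symbols. Of 9 with values of their own, 7 were higher at 2 weeks (77.8%) and 8 at 5 weeks (88.9%). With shared values counted, 1 marker was also called lower at 5 weeks. In the clone 5 were higher and 1 lower (66.7%). Over all rows with values of their own, 8.99%, 5.51% and 25.9% were called. In bulk RNA, fewer cells of a type and less RNA per cell cannot be told apart.

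In the human lines 4 lysosomal genes had values. Both human tables held the same 420 symbols, and 419 of the WM983 rows (99.8%) were at least 2-fold, so being listed there goes with the size of change in WM983 and is no result about these genes. The direction of these values is not stated and could not be checked, and signs are given as deposited. For UV in WM983 the authors' deposited table gave -1.92 for ATP6V1F, 2.72 for ATP6V0A4, -1.01 for ATP6V0E2 and 1.77 for GAA. Each was at the smallest deposited p-value, which 351 of the 420 WM983 rows held, so it does not set these genes apart. For UV in UACC257 the authors' deposited table gave -0.20 for ATP6V1F, 0.49 for ATP6V0A4, -0.062 for ATP6V0E2 and -0.033 for GAA. In UACC257, 1 of 420 rows (0.238%) was at least 2-fold, 0 passed Benjamini-Hochberg adjustment and 42 had an unadjusted p under 0.05. In B16N, Atp6v1f rose at 2 weeks and Atp6v0e2 in the clone, while Gaa and Atp6v0a4 were called in none.

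**Figure D4:**
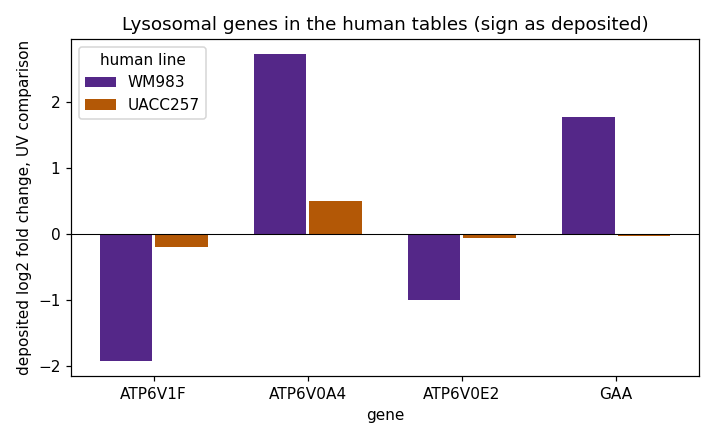
Deposited log2 fold change (y axis, sign as deposited) of the 4 lysosomal genes (x axis) in the UV comparisons of WM983 and UACC257. Values in WM983, where 419 of 420 rows were at least 2-fold, run from -1.92 to 2.72, and those in UACC257 from -0.20 to 0.49.

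Promoter sequence was at hand for human genes alone, from RefSeq on GRCh38.p14, in windows of 250 bases before to 50 bases after the start. Human genes with a member's symbol were found for 35 of 54. The E-box palindrome TCACGTGA was in 5 of these windows (14.3%), those of ATP6V0D1, ATP6V1G1, GAA, GALNS and LAMP1, and in 1.04% of all 27305 windows. With a G before it and a C after it, which gives a longer palindrome, it was in 3 (8.57%), those of ATP6V1G1, GAA and GALNS, against 0.381%. The shorter CACGTG, which lies within both, was in 11 (31.4%) against 7.43%. TCATGTGA, searched on both strands, was in 4 (11.4%) against 1.01%, and CATGTG, which lies within it, in 7 (20.0%) against 11.2%. The 150 bases before the start are shown as examples for ATP6V1G1, ATP6V0D1, CTSD, LAMP1 and GAA. Those of GALNS, ATP6V0B, ATP6V0E2, CD63, CTSF and NEU1, which also hold CACGTG, are not shown. Capitals mark CACGTG or the longest of the forms around it:
ATP6V1G1 (chr9:114587619-114587768, plus strand): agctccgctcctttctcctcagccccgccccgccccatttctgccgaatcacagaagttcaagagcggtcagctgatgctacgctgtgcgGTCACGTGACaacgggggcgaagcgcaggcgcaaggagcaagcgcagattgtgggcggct
ATP6V0D1 (chr16:67481158-67481307, minus strand): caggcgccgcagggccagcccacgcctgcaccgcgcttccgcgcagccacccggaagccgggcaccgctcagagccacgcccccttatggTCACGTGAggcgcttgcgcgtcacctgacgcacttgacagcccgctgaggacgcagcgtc
CTSD (chr11:1763928-1764077, minus strand): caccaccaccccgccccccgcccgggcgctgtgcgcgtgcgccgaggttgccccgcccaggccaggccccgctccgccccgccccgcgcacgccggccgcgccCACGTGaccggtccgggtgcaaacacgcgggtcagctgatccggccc
LAMP1 (chr13:113297089-113297238, plus strand): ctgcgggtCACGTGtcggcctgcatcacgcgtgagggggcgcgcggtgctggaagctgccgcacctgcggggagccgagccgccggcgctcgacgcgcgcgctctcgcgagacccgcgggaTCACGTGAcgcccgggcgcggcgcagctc
GAA (chr17:80101431-80101580, plus strand): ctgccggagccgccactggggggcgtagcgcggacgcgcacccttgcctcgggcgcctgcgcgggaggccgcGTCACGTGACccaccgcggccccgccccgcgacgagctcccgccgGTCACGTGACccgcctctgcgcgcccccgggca
The mouse counterparts did different things. Atp6v1g1 and Ctsd rose at both UV times, Atp6v0d1 rose at 5 weeks and in the clone, Lamp1 fell in the clone, and Gaa was called in none. Binding was not measured, and mouse promoters were not analysed here.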

How the data were processed

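RNA-seq of 8 samples, 1 per group, was compared by the authors, who deposited 5 tables. Per the file headers, the deposited columns are the symbol, a log2 fold change, a p-value, and a statistic that serves as a score. GRCm38 is the build named in the submitters' processing notes; aligner, counter and test are not given in the sources used here, nor is the build of the human tables. Mouse signs were turned, since the 1357 symbols with a row in only one mouse table all had negative deposited values. The SE is the log2 fold change over the score, whose two-sided normal p matched the deposited p-value within 5.0e-08. Usable rows were 14648, 14821 and 15041. Rows lacking a symbol (1 per mouse table) or a p-value (3 in the clone's table) were dropped. With no levels or counts deposited, no depth or depth-based interval can be given. The members and lists were chosen with earlier results of these data known. Named were members called in a comparison or difference or present in a human table, and up to 4 called genes per further list and comparison; other names were chosen after values were seen. The calculations were tested on simulated data, with normal noise of the SEs above and changes planted in rows of SE at most 0.5. This checks the code only, since the simulated data hold no spread between replicates. Alternatives were a stricter threshold, fold minimums of 1.5 and 2, SE at most 0.5, shared values counted or dropped, the median of rows of SE at most 0.3 set to 0, and Benjamini-Yekutieli adjustment. Software was Python 3.11.15, numpy 2.4.6, pandas 2.3.3, scipy 1.17.1 and matplotlib 3.10.9.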

Additional observations from a re-analysis of the deposited data

Results flagged for a closer look

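The change at 5 weeks differed from that at 2 weeks, by the normal test of the difference, for Lamp2 by 1.30 (SE 0.25), for Lipa by 0.87 (SE 0.15), and for the value listed for both Atp6v0c and Tceanc2 by 0.52 (SE 0.13), each higher at 5 weeks on the log2 scale. GAA was listed with opposite signs in the human lines, at 1.77 in WM983 and -0.033 in UACC257 in the authors' deposited tables. The UACC257 value has a statistic of -0.125 and no readable sign, and 419 of the 420 WM983 rows are at least 2-fold, so a large value there goes with being listed. The difference was not tested.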

How the results depend on the processing

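No paired analysis was possible because each group has 1 sample. For the same reason no sample could be left out. Counts moved most with fold minimums. At least 1.5-fold left 2 genes called at 2 weeks, 5 in the clone, and 6 that differed between the clone and 2 weeks. At least 2-fold left 0 of the 7 genes called at 2 weeks by Benjamini-Hochberg adjustment, 3 at 5 weeks and 4 in the clone. Over all rows with values of their own it left 41 of 10415, 214 of 10482 and 830 of 10659, so few calls at 2 weeks were this large in any gene. Among members it left 1 that differed between 5 and 2 weeks, 2 between the clone and 5 weeks and 1 between the clone and 2 weeks. For the other counts in this paragraph the share over all rows is not given. An adjusted p under 0.01 and Benjamini-Yekutieli adjustment each left 7 at 5 weeks, and Benjamini-Yekutieli adjustment left 6 between the clone and 2 weeks. Rows of SE at most 0.5 gave 4 differences between 5 and 2 weeks. Under the alternatives run, the members' median ranged from 0.17 to 0.20 at 2 weeks, 0.26 to 0.36 at 5 weeks and 0.16 to 0.23 in the clone. Of 1092 values of 28 members under the alternatives, 976 kept their side of the threshold, 108 no longer passed, 8 newly passed and 0 turned direction. The tables give no depth, so what depth limits cannot be said.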
